A study of Homo sapiens with 2 samples.

Results

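Many human transcripts can end at more than 1 poly(A) site, the place where the RNA is cleaved and a tail of adenosines is added. Neighbouring sites on the same chromosome and strand, 500 to 5000 nt apart, were examined here as tandem pairs. They were taken from the union of the poly(A) sites in both deposited read tables. A site was kept where its nearest other site on the same strand lay in that range. This held for 2430 of 9004 sites (27.0%), while 3136 sites had a closer neighbour and 3438 had a farther one or none. Of the kept sites, 2062 formed 1105 pairs and 368 had a nearest neighbour that was not itself kept. The site upstream by strand is called proximal and the other distal. The median distance within pairs was 1416 nt (500 to 4998), and 280 pairs shared a site with another pair. Only positions chose these 1105 pairs, and no tail length or share did. The pairs compared below also had to reach a minimum of reads.

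Use of a proximal or a distal site, called alternative polyadenylation, can change the length of the 3′ untranslated region or, where the proximal site lies upstream of the stop codon, the encoded protein. PABPC1 and PABPC4, which bind poly(A) in the cytoplasm, coat the tail, take part in translation and meet the enzymes that shorten tails. A tail is made in the nucleus and is then shortened in the cytoplasm, so its length on a molecule is not set by cleavage alone. No gene names stand beside the sites in the files, and whether both sites of a pair belong to 1 gene was not tested. Pairs are therefore named by chromosome, strand and the 2 positions as the files give them. Few of these positions (2.67%) lie within 25 nt of a transcript end of the hg38 annotation, so their genome build is treated as not known. For the same reason no sequence around the sites is shown.

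The data are tail lengths read on single RNA molecules by nanopore direct RNA sequencing in HCT116, a human colon cancer cell line. In both lines PABPC1 and PABPC4 carried a degron tag, through which indole-3-acetic acid (IAA) triggers removal of the protein. A Sleeping Beauty transposon expressed either PABPC1 or PABP1212, a PABPC1 with RRM1 and RRM2, 2 of its RNA-binding domains, duplicated. Treated cells received 1 μg/mL doxycycline and 0.5 mM IAA for 13 days and were sorted into 4 gates of 25% each, called here the lowest, second-lowest, second-highest and highest level. Uninduced cells of each line carried the same tags and transposon, and were neither treated nor sorted. There was 1 library per line with these 5 subsamples. No subsample was repeated, so each level is 1 observation in its library and p-values measure the spread around an order or a line over levels, which may be technical. Whether a line is 1 clone is not given in the sources used here. The same adapters served the same level in both libraries. The transgene therefore cannot be told apart from the library, nor the level from its adapters, nor treatment from sorting.

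Depth ranged from 65862 reads in the PABPC1 lowest level to 630986 in the PABP1212 second-highest level. Kept sites held between 10.2% and 13.5% of these reads, in the PABP1212 uninduced and lowest subsamples. Most pairs were too sparse to compare. Only 49 of 1105 pairs (4.43%) had at least 20 reads in all 10 subsamples, and 1056 did not. Of the 49 pairs, 13 also had at least 10 reads at each site in all 10 subsamples, the minimum used for tails. The deeper PABP1212 library alone gave 187 pairs for shares and 70 for tails. These are the better expressed pairs, with 6 of the 49 sharing a site with another pair, 0 of the 13, 28 of the 187 and 14 of the 70.

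The share of a pair's reads that ended at the proximal site differed widely between pairs, while its median over pairs was similar in most subsamples. Over the 49 pairs the mean share of a pair ranged from 11.7% to 84.6%, and 21 pairs had a mean above 50%. In the PABPC1 library the median share was 44.1% in uninduced cells and 44.8%, 44.1%, 44.1% and 45.7% going up the 4 levels. With PABP1212 it was 41.7% in uninduced cells and 44.7%, 41.7%, 36.2% and 35.8% going up the 4 levels. The middle of the distribution, from quartile to quartile, reached from 18.2% to 71.6% in the PABPC1 second-highest level and from 21.7% to 70.7% in the PABP1212 highest level. The subsamples therefore overlapped almost entirely. The uninduced cells of the lines gave a check of the measurement, since their shares came from separate libraries. Their shares had a Spearman rho of 0.92 over the 49 pairs, which are not independent replicates. They differed by a median of 4.76 percentage points and by at most 18.8 points, and at 0 of the 49 pairs did the exact Clopper-Pearson 95% intervals fail to overlap. These intervals cover counting error only. They are wide, with a median of 32 reads per pair in PABPC1 uninduced cells and 98 in PABP1212 ones. Their overlap therefore says little about how closely the libraries match.

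No shift of all pairs toward 1 site passed the test. The slope of the proximal share over the 4 sorted levels had a median over pairs of −0.74 percentage points per level with PABPC1, where 22 of 49 pairs rose (two-sided exact permutation p = 0.333). With PABP1212 the median slope was 0.63 points per level and 27 pairs rose (exact permutation p = 0.0833, the smallest that the 24 orders of the levels allow). Permuting both libraries jointly gave a mean slope of −0.05 points per level (exact permutation p = 0.865, where 0.00347 was the smallest possible). The joint test treats the libraries as independent although they share adapters. The slopes of the libraries differed by 1.36 points per level, with PABP1212 the higher (exact permutation p = 0.0521). Without the PABPC1 highest level that difference was 2.22 (exact permutation p = 0.0139), and among pairs under 2000 nt apart it was 1.51 (exact permutation p = 0.00694). With 5 reads required at each site it was 1.53 (exact permutation p = 0.0486), and without pairs that share a site 0.27 (exact permutation p = 0.573). Without the PABPC1 lowest level the difference was −0.07 and the joint slope was 0.66 (exact permutation p = 0.0139). Without the 6 pairs that share a site the joint slope was 0.49 (exact permutation p = 0.0243), so its direction rests on few pairs. The 187 pairs of the PABP1212 library had median shares of 46.3% in uninduced cells and 44.7%, 43.2%, 42.6% and 46.6% going up the 4 levels. Their median slope was 0.66 points per level, with 108 pairs rising (exact permutation p = 0.0833).

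**Figure D1:**
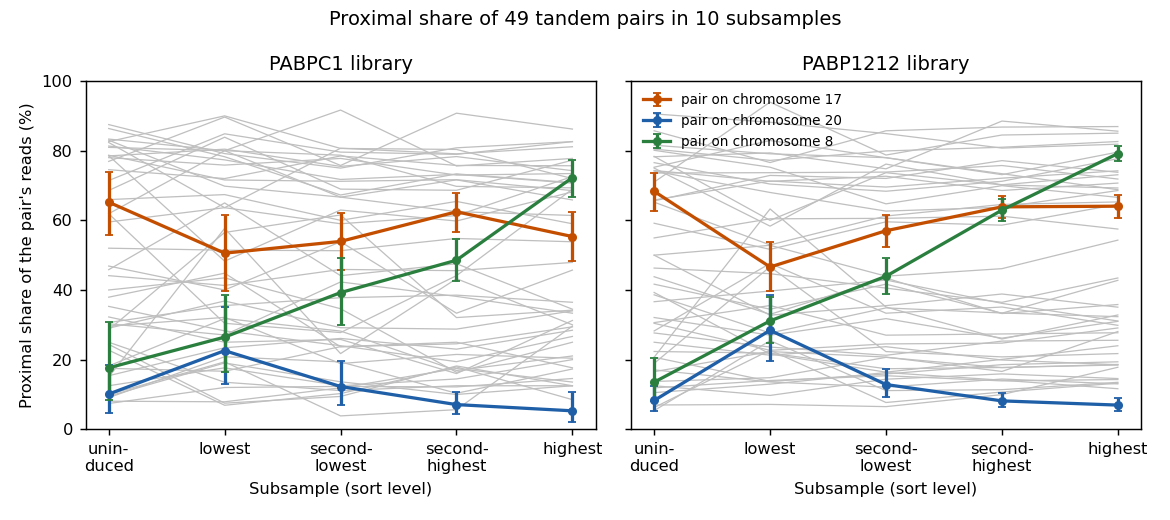
Proximal share of the pair's reads (%, vertical axis) in each subsample (horizontal axis) for the 49 pairs with at least 20 reads everywhere, PABPC1 library on the left and PABP1212 on the right. Grey lines are single pairs and coloured lines, with Clopper-Pearson 95% intervals, are the 3 pairs with a called trend. The pair on chromosome 8 climbs from 17.6% and 13.5% in uninduced cells to 72.3% and 79.2% at the highest level. Over the 49 pairs the range of the share over the 10 subsamples had a median of 18.3 points.

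Single pairs were tested with limma on the log2 ratio of proximal to distal reads. All 155 neighbouring pairs up to 5000 nt apart with at least 20 reads everywhere were fitted, with terms for library, replacement (sorted against uninduced cells) and level within library. A PABP1212 trend passed a Benjamini-Hochberg adjusted p of 0.05 at 3 pairs, or 1.94% of all fitted pairs, and all 3 were among the 49. A PABPC1 trend passed at 2 pairs (1.29%), both also among the 3. The difference between the trends passed at 0 of 155 pairs, with 5 pairs at an unadjusted p under 0.05, 3 of them among the 49. Whether calls fell more often on these pairs than on closer ones was not tested. The fit found no spread between pairs in their residual variance and gave all of them 1 common value. The smallest p-values below rest on that common value and on read counts, with 4 residual degrees of freedom per pair.

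The pair with the widest range of shares lay on chromosome 8, minus strand, with its proximal site at 101716508 and its distal site at 101715138, 1370 nt apart. In the PABPC1 library its proximal share was 17.6% (Clopper-Pearson 95% interval 8.40 to 30.9, 51 reads) in uninduced cells and 26.5%, 39.3%, 48.6% and 72.3% going up the 4 levels. The interval at the highest level was 66.7 to 77.4 over 285 reads. With PABP1212 it was 13.5% (8.22 to 20.5, 133 reads) in uninduced cells and 31.1%, 43.9%, 62.9% and 79.2% going up the 4 levels, the last with an interval of 77.0 to 81.2 over 1489 reads. In both libraries the shares stood in the order of the sorted levels, with uninduced cells below all of them. The trend was 0.97 ± 0.13 log2 per level (SE) with PABPC1 (limma adjusted p = 6.30e-12) and 1.08 ± 0.07 with PABP1212 (limma adjusted p = 2.85e-48). These differed by 0.11 ± 0.14 log2 per level, less than the error (limma adjusted p = 0.987). Without the PABPC1 highest level the PABPC1 trend was 0.65 log2 per level and no longer passed (limma adjusted p = 0.147).

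The change at this pair lay mostly in reads of the proximal site. Its level in CPM, the reads at the site scaled to a common total per subsample, was 133 in PABPC1 uninduced cells and 273, 411, 693 and 1966 going up the 4 levels. In the PABP1212 library it was 85.3 in uninduced cells and 436, 551, 964 and 2036 going up the 4 levels. The distal site lay between 622 and 759 CPM in the PABPC1 library and between 535 and 965 in the PABP1212 library, with no order over the PABPC1 levels and a fall at each step up in PABP1212. Proximal tails had a median of 137 nt in PABPC1 uninduced cells, over 9 reads, and 123, 134.5, 100.5 and 106 nt going up the 4 levels. Distal tails of that library were 108, 114.5, 107, 89 and 87 nt in the same order. With PABP1212 the proximal tails were 104.5, 107, 98, 94.5 and 89 nt and the distal tails 84, 106, 93, 81 and 89 nt. Proximal tails were thus as long as or longer than distal ones at this pair in all 10 subsamples. The sorted variable is expression of the transgene, and whether reads of the transgene were placed at either site was not tested. Without this pair the joint share slope of the remaining 48 pairs was −0.17 points per level (exact permutation p = 0.535).

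**Figure D2:**
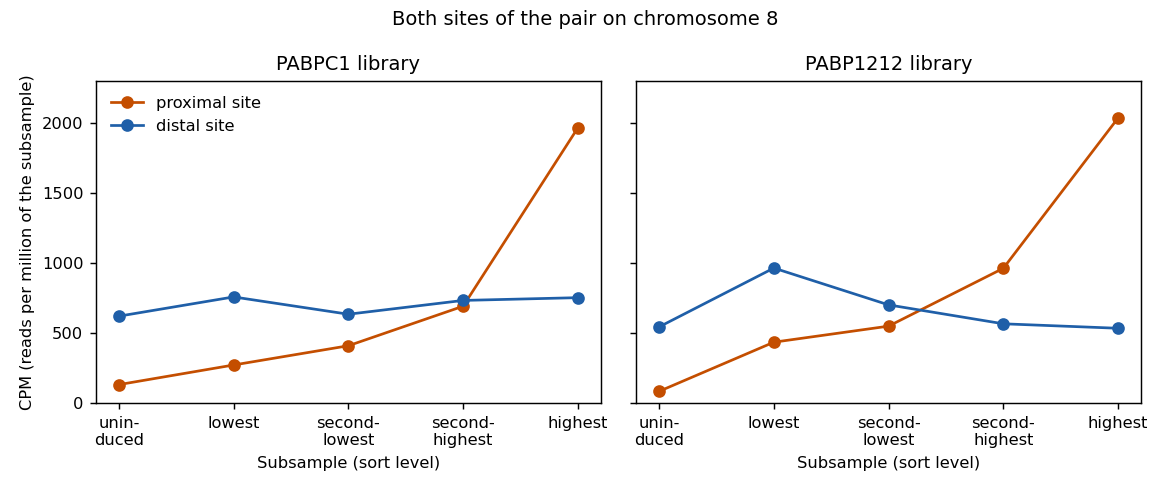
CPM (vertical axis, reads scaled to a common total per subsample) at the proximal and distal site of the pair on chromosome 8, by subsample (horizontal axis), PABPC1 library on the left and PABP1212 on the right. Each point is 1 subsample; the proximal site reaches 1966 and 2036 CPM at the highest level, while the distal site lies between 535 and 965 in all 10 subsamples.

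A pair on chromosome 20, minus strand, with its proximal site at 57608200 and its distal site at 57603733, 4467 nt apart, moved the other way. Its proximal share in the PABPC1 library was 10.1% in uninduced cells and 22.6%, 12.3%, 7.09% and 5.30% going up the 4 levels. With PABP1212 it was 8.27% in uninduced cells and 28.4%, 12.8%, 8.16% and 6.95% in that order. The lowest level stood above all other subsamples in both libraries, and the second-highest and highest levels had lower values than uninduced cells. With PABP1212 the Clopper-Pearson 95% intervals of these last subsamples overlapped. They were 5.19 to 12.4 in uninduced cells, 6.30 to 10.4 at the second-highest level and 5.17 to 9.10 at the highest. The trend was −0.83 ± 0.21 log2 per level with PABPC1 (limma adjusted p = 0.00801) and −0.73 ± 0.12 with PABP1212 (limma adjusted p = 1.39e-07). Both calls were lost without the lowest level of their library, where the trends were −0.67 (limma adjusted p = 0.567) and −0.48 (limma adjusted p = 0.0793). The PABPC1 call was also lost without its second-highest level (−0.77, limma adjusted p = 0.0959) and without its highest level (−0.96, limma adjusted p = 0.141). The proximal site here also serves as the distal site of another pair.

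The third called pair was on chromosome 17, plus strand, at 39847254 and 39847896, 642 nt apart, and it also had the most reads of the 13 pairs measured for tails. With PABP1212 its proximal share was 68.3% in uninduced cells and 46.6%, 57.0%, 63.9% and 64.1% going up the 4 levels. The intervals of the uninduced cells (62.7 to 73.6) and the lowest level (39.6 to 53.7) did not overlap. In the PABPC1 library the shares were 65.2%, 50.6%, 53.9%, 62.5% and 55.3%, so the lowest level was again the lowest value. The trend was 0.29 ± 0.06 log2 per level with PABP1212 (limma adjusted p = 0.000399) and 0.11 ± 0.11 with PABPC1 (limma adjusted p = 0.869). The difference of these trends was 0.18 ± 0.13 and did not pass (limma adjusted p = 0.924). The PABP1212 call was lost without its lowest level (0.19, limma adjusted p = 0.224), without weights (0.35, limma adjusted p = 0.778) and with subsample medians subtracted (0.14, limma adjusted p = 0.262).

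**Figure D3:**
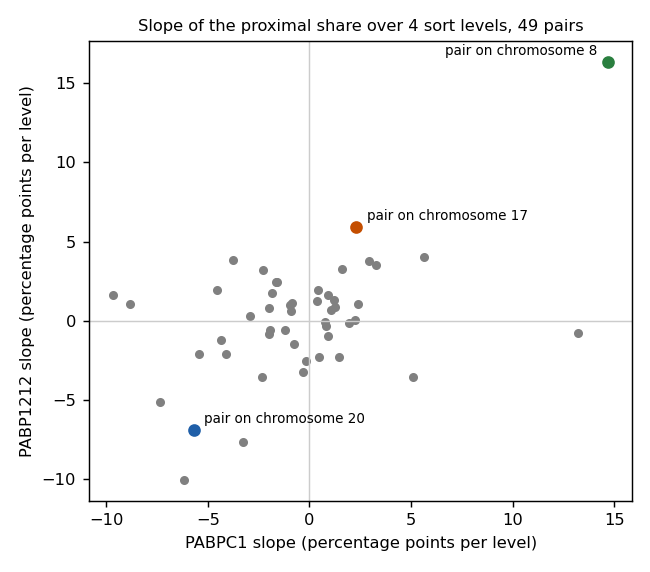
Slope of the proximal share over the 4 sorted levels, in percentage points per level, in the PABPC1 library (horizontal axis) and the PABP1212 library (vertical axis). Each point is 1 of the 49 pairs and the coloured points are the 3 pairs with a called trend; the pair on chromosome 8 lies apart at 14.7 and 16.3 points per level, while the others scatter around 0.

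Sorted cells were also set against uninduced cells at each pair. The fit matches the 1 uninduced subsample of a library exactly. The p-values of replacement changes, here and below, therefore do not measure variation between uninduced samples. The PABP1212 replacement change passed at 2 of the 49 pairs, which were the 2 calls among all 155 fitted pairs (1.29%). The first was the chromosome 8 pair, at 2.91 ± 0.38 log2 (limma adjusted p = 5.30e-12). The second, named after its values were seen, lay on chromosome 15, plus strand, at 79189608 and 79190108, 500 nt apart. Its proximal share fell from 39.3% in uninduced cells to 21.6%, 16.4%, 20.1% and 24% going up the PABP1212 levels, a change of −1.35 ± 0.36 log2 (limma adjusted p = 0.0150). That call was lost without weights (−1.33, limma adjusted p = 0.516) and with subsample medians subtracted (−1.26, limma adjusted p = 0.152), where the change was about as large. In the PABPC1 library the same pair had 24.4% in uninduced cells and 7.5%, 9.43%, 18.2% and 12.5% in sorted cells, and its change of −1.07 ± 0.60 did not pass (limma adjusted p = 0.770). At the chromosome 8 pair the PABPC1 replacement change was 1.88 ± 0.54 log2 (limma adjusted p = 0.0937). For PABPC1 the replacement change passed at 0 of 155 pairs in limma, with 9 at an unadjusted p under 0.05, 2 of them among the 49. The difference of the replacement changes passed at 0 pairs, with 5 at an unadjusted p under 0.05.

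The deeper library fitted alone covered 551 neighbouring pairs, 187 of them 500 to 5000 nt apart, with 2 residual degrees of freedom. A trend passed in limma at 6 of 551 pairs (1.09%), and 3 of these were tandem pairs at this distance. They were the same 3 pairs on chromosomes 8, 17 and 20, and all 3 calls were lost without the PABP1212 highest level or without weights. The trends kept their direction: on chromosome 8 it was 1.00 log2 per level without that level (limma adjusted p = 0.475) and 1.03 without weights (limma adjusted p = 0.126), on chromosome 17 it was 0.48 and 0.35, and on chromosome 20 −1.02 and −0.80. The replacement change passed at 3 of 551 pairs (0.544%), all 3 of them at this distance. Beside the pairs on chromosomes 8 and 15, the third, also named after its values were seen, lay on chromosome 12, minus strand, at 76422301 and 76419192, 3109 nt apart. Its proximal share was 70.5% in uninduced cells and 49.2%, 42.3%, 39.7% and 40.0% going up the 4 levels, so all sorted levels lay below uninduced cells. The change was −1.66 ± 0.45 log2 (limma adjusted p = 0.0462), close to the threshold. The proximal site of this pair also serves as the distal site of the pair at 76423348. That other pair had a proximal share of 65.6% in uninduced cells and 72.9%, 72.0%, 77.1% and 73.8% going up the levels. Its change was in the opposite direction, at 0.60 ± 0.32 log2, and did not pass (limma adjusted p = 0.716). The calls on chromosomes 12 and 15 were each lost under 6 of 9 alternatives, with limma adjusted p-values up to 0.802. The changes stayed between −1.75 and −1.57 log2 on chromosome 12 and between −1.53 and −1.25 on chromosome 15. At an unadjusted p under 0.05 the trend held at 28 of the 187 pairs (15.0%), against 9.80% of all 551.

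Tails were compared within a subsample, which cancels a shift shared by all sites. At the 13 pairs with enough reads, distal tails were somewhat longer than proximal ones on the same strand. The median of distal minus proximal median tail was 7 nt in PABPC1 uninduced cells and −0.5, −3, 3.5 and 3 nt going up the 4 levels. In the PABP1212 library it was 6 nt in uninduced cells and 12, 4, 15 and 7 nt going up the 4 levels. The difference was above 0 in 8 of 10 subsamples, with a mean of 5.40 nt (two-sided exact sign-flip permutation p = 0.0137, where 0.00195 was the smallest possible). The subsamples hold the same 13 pairs, so this test bears on the spread between subsamples and not on other pairs. On average over subsamples 11 of the 13 pairs had the longer distal tail. Among the 9 pairs under 2000 nt apart the difference was 2.75 nt and did not pass (exact sign-flip permutation p = 0.0664). Among the 4 pairs farther apart it was 14.3 nt (exact sign-flip permutation p = 0.00195), and the difference between these distance groups was not tested.

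**Figure D4:**
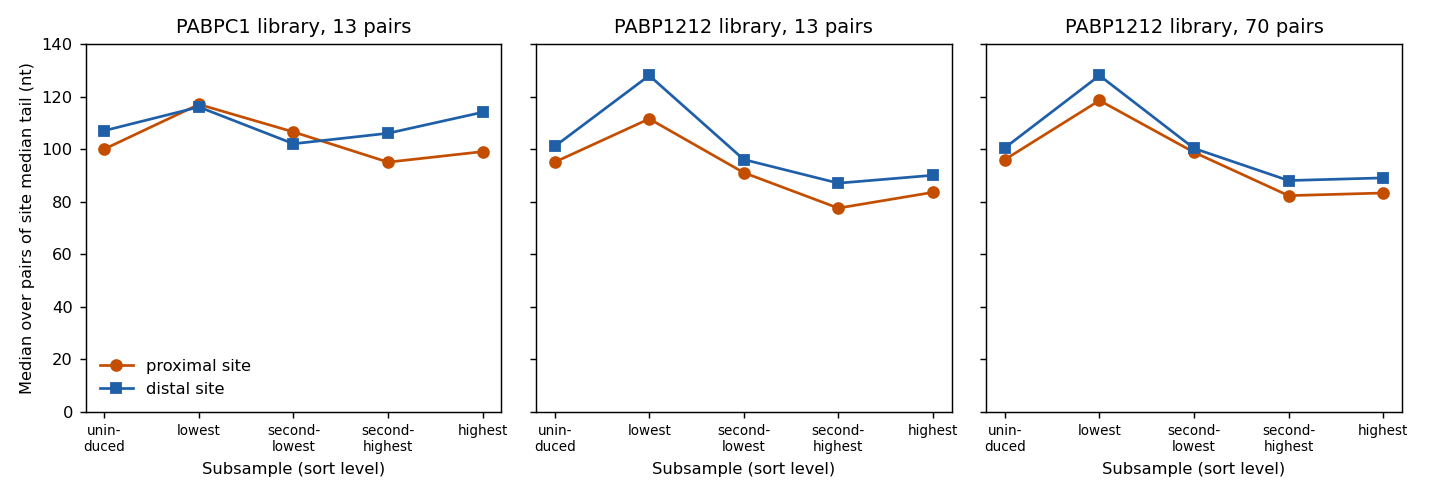
Median over pairs of the site median tail (nt, vertical axis) at proximal and distal sites by subsample (horizontal axis), for 13 pairs in each library and for 70 pairs in the PABP1212 library. In the PABP1212 panels the distal line lies above the proximal line in every subsample, and in the PABPC1 panel the lines cross.

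Pairs differed far more from one another than the typical distal minus proximal difference. The pair with the most reads, on chromosome 17 at 39847254, had proximal tails of 100, 155, 115.5, 107 and 99 nt and distal tails of 89.5, 157, 102, 110 and 117 nt in the PABPC1 library, in the order uninduced, lowest, second-lowest, second-highest and highest. With PABP1212 its proximal tails were 97, 145.5, 109.5, 83 and 86 nt and its distal tails 107, 149, 127.5, 98 and 107.5 nt. Both of its sites had their longest tails at the lowest level in both libraries, and with PABP1212 the distal tail was longer in all 5 subsamples.

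A pair on chromosome 1, plus strand, at 156107657 and 156109872, 2215 nt apart, had the largest mean difference of the 13, at 20.4 nt, with the distal tail longer in 9 of 10 subsamples. Its proximal tails were 108, 106.5, 84, 82.5 and 78.5 nt with PABPC1 and 98, 94, 66, 68 and 73.5 nt with PABP1212, in that order of subsamples. Its distal tails were 116, 105, 97.5, 95.5 and 164 nt, and 101.5, 128, 83.5, 79 and 92.5 nt. The value of 164 nt rested on 19 reads. The next largest mean, 17.1 nt, was at a pair on chromosome 14, minus strand, at 75600947 and 75598155. At the other end, a pair on chromosome 6, plus strand, at 30692355 and 30693199, had a mean difference of −5.90 nt and a longer distal tail in only 2 of 10 subsamples. Its proximal tails ran from 84.5 to 123 nt and its distal tails from 79.5 to 118 nt. A pair on chromosome 16, minus strand, at 69744744 and 69743304, had a mean of −4 nt. These 4 are the ends of the distribution and carry no test.

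The proximal shares of the pairs with the most reads varied over subsamples by differing amounts. The chromosome 6 pair at 30692355 had proximal shares between 27.6% and 38.6%, a second pair on chromosome 6, plus strand, at 151677909 and 151679671, between 65.8% and 78.7%, and a pair on chromosome 17, minus strand, at 73132046 and 73131343, between 64.7% and 83.3%. The last had its highest share in uninduced cells in both libraries, with 83.3%, 80.0%, 78.7%, 69.8% and 69.3% in the PABPC1 library and 80.1%, 75.3%, 64.7%, 70.0% and 66.6% in the PABP1212 library. Over the 49 pairs the range of the share over 10 subsamples had a median of 18.3 points, from 6.62 to 65.6. In the uninduced cells of the lines the difference of the same pair had a Spearman rho of 0.25 over 13 pairs and a median absolute difference of 15.5 nt between libraries.

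The 70 pairs of the PABP1212 library gave a median distal minus proximal tail of 5.75 nt in uninduced cells and 7.75, 0.25, 5.25 and 4 nt going up the 4 levels. The distal tail was the longer at 44 pairs in uninduced cells and at 44, 35, 50 and 45 pairs going up the 4 levels, and it was shorter at 26, 26, 35, 18 and 23 pairs in that order. It was longer in all 5 subsamples at 11 pairs and shorter in all 5 at 2. Averaged over subsamples, 47 of 70 pairs had the longer distal tail. Across these pairs the tails of the 2 sites had a Spearman rho of 0.33. The difference had a rho of 0.003 with distance and 0.11 with the proximal share, and across the 187 pairs the share had a rho of 0.05 with distance. These are descriptions across pairs within 1 library.

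**Figure D5:**
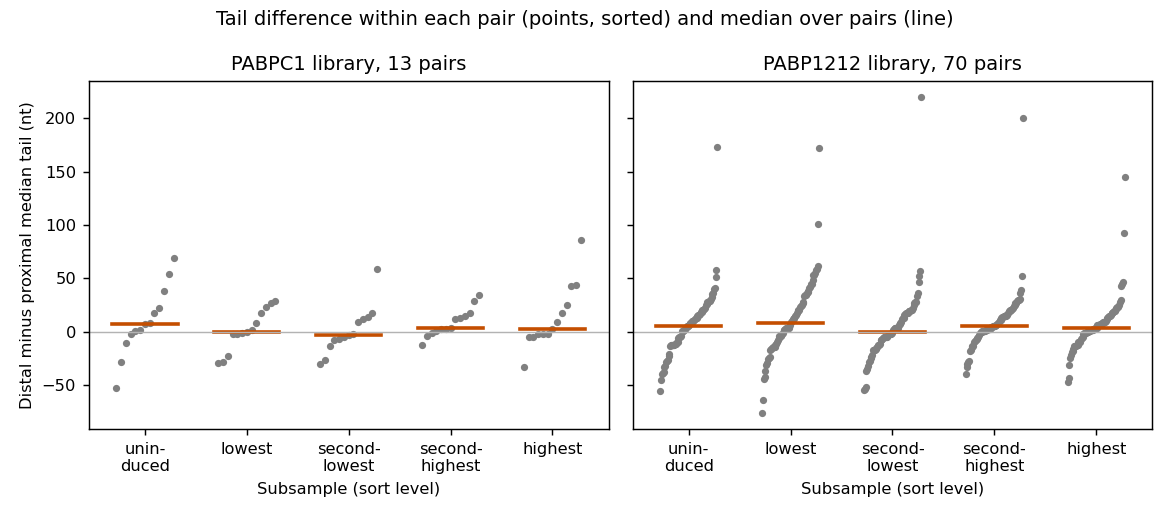
Distal minus proximal median tail (nt, vertical axis) in each subsample (horizontal axis), for 13 pairs of the PABPC1 library on the left and 70 pairs of the PABP1212 library on the right. Points are single pairs sorted by value and orange lines are medians over pairs, which lie between −3 and 7.75 nt; the topmost point at every PABP1212 subsample is the pair on chromosome 17 whose distal tails are 228 to 311 nt.

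A few of the 70 pairs, named after their values were seen and without a test, had distal and proximal tails that did not resemble each other. A pair on chromosome 17, plus strand, at 57917954 and 57919616, 1662 nt apart, had distal tails with medians of 301.5 nt in uninduced cells and 298.5, 311, 292 and 228 nt going up the 4 levels. Its proximal tails were 128, 126, 91, 92 and 83 nt in the same order. The distal medians rested on 11 to 14 reads each, yet all 5 were over 100 nt above the proximal ones, and the mean difference was 182 nt. The opposite end was a pair on chromosome 10, minus strand, at 103544207 and 103541082, 3125 nt apart. Its proximal tails were 131, 192, 155, 121 and 129 nt and its distal tails 93, 128, 101, 81 and 85.5 nt, so the distal tail was shorter in all 5 subsamples, by a mean of −47.9 nt in distal minus proximal. The other pair with a shorter distal tail in all 5 was the chromosome 20 pair at 57608200, with a mean of −25.6 nt.

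Joint slopes over both libraries were toward shorter tails at higher transgene levels at both sites, with the PABPC1 distal sites the least regular. The median slope over the 13 pairs was −8.00 nt per level at proximal sites with PABPC1, where 10 of 13 pairs fell, and −12.4 nt per level with PABP1212, where all 13 fell. Each alone reached the smallest possible exact permutation p of 0.0833, and the joint slope of −10.2 nt per level had an exact permutation p of 0.00347, also the smallest possible. At distal sites the PABPC1 medians were 116, 102, 106 and 114 nt going up the levels. The median slopes there were −5.65 nt per level with PABPC1 (exact permutation p = 0.167, 8 of 13 pairs falling) and −13.5 with PABP1212 (exact permutation p = 0.0833, 12 of 13). The joint distal slope was −9.57 nt per level (exact permutation p = 0.00694). Without the PABP1212 lowest level the joint proximal slope was −7.00 (exact permutation p = 0.0694) and the distal one −5.08 (exact permutation p = 0.139). Without the PABPC1 lowest level the joint distal slope was −4.50 (exact permutation p = 0.403) and the PABPC1 distal slope turned to 4.50 (exact permutation p = 0.333). It also missed the threshold without the second-highest level of PABPC1 (−8.09, exact permutation p = 0.0694) or of PABP1212 (−8.59, exact permutation p = 0.0625).

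The difference in slope between the libraries did not pass its own test at either site. The PABP1212 slope minus the PABPC1 slope was −4.40 nt per level at proximal sites (exact permutation p = 0.694) and −7.85 at distal sites (exact permutation p = 0.479). Without the PABPC1 lowest level the distal difference was −18.0 and passed (exact permutation p = 0.0139). In the 70 pairs of the PABP1212 library the slopes were −11.2 nt per level at proximal sites (68 of 70 falling, exact permutation p = 0.167) and −13.7 at distal sites (66 of 70 falling, exact permutation p = 0.0833). Against uninduced cells, proximal tails at the 13 pairs were longer by a median of 23 nt at the PABPC1 lowest level (11 of 13 pairs) and 18.5 nt at the PABP1212 lowest level (10 of 13). At the PABP1212 second-highest and highest levels they were shorter at all 13 pairs, with median changes of −18 and −16 nt. At the same PABPC1 levels the median changes were 1 and 4 nt, each with 7 of 13 pairs longer. Distal tails changed by −15.5 nt (11 of 13 shorter) and −9 nt (9 of 13 shorter) at these PABP1212 levels, and by −1 and 2 nt at the PABPC1 ones.

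Whether the gap between the sites itself moved with the level was less clear. The slope of distal minus proximal tail over the 13 pairs was 6.45 nt per level in the PABPC1 library and 1.75 in the other, with a joint slope of 4.10 (exact permutation p = 0.0347). The joint call was lost under 11 of 17 alternatives. With at least 5 reads per site in place of 10, for example, the slope was 0.80 nt per level (exact permutation p = 0.562). In the 70 pairs of the PABP1212 library it was −0.57 nt per level (exact permutation p = 0.917), the opposite sign to the 13 pairs. No tandem pair passed in limma fits of the tail difference: 0 of 55 fitted pairs (13 of them at this distance) for any of the 6 terms, and 0 of 233 (70 of them) in the PABP1212 library alone. At an unadjusted p under 0.05 the PABP1212 trend held at 1 of the 13 pairs, against 1 of all 55 (1.82%), and at 2 of the 70 (2.86%), against 6 of all 233 (2.58%). Tails under 30 nt made up 5.96% of the reads at proximal and 5.57% at distal sites in PABP1212 uninduced cells over the 70 pairs. At the highest level these were 12.6% and 12.1%, so the shares at the 2 sites lay close to each other in both.

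Kept sites were also followed singly, among 914 sites that reached 10 reads in every subsample, of which 102 were kept sites. In the limma fit of mean log2 tail, the PABP1212 trend passed at 1 of the 102 kept sites, against 15.2% of all 914. That site was the distal one of the chromosome 20 pair, at 57603733, with −0.21 ± 0.05 log2 per level (limma adjusted p = 0.0123). The median trend was the same, −0.14 log2 per level in the kept sites and in all 914, and 99 of the 102 trends were negative. At an unadjusted p under 0.05 the trend held at 20.6% of kept sites and 34.6% of all. Kept sites had fewer reads, with a median of 652 over the 10 subsamples against 820 at other sites. Among the third of sites with the most reads, 1 of 19 kept and 127 of 285 other sites passed, with median standard errors of 0.07 and 0.05 and median trends of −0.11 and −0.14. The part of reads in the lower count was not tested. The count of kept sites was 73 without the PABP1212 highest level, 45 without its second-highest level, and 0 without its lowest or its second-lowest level, while all sites gave 665, 490, 11 and 13. The PABPC1 trend and the differences passed at 0 of the 914 sites in limma, with 2 of the 102 kept sites (1.96%) and 15 of all 914 (1.64%) at an unadjusted p under 0.05 for the PABPC1 trend.

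Tails at kept sites were longer than at other sites in all 10 subsamples. The median over the 102 kept sites was 104 nt in PABPC1 uninduced cells and 120.5, 107.5, 103 and 105 nt going up the 4 levels, against 95, 116, 102, 98 and 99 nt over the other 812 sites. With PABP1212 it was 97 nt and then 127, 103, 84 and 86 nt, against 94, 120, 96, 79.5 and 81 nt. The mean difference was 5.65 nt (exact sign-flip permutation p = 0.00195, the smallest possible). As above, the same sites stand in every subsample, so this p bears on the subsamples alone.

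Pairs under 500 nt apart served as the nearest comparison. At 39 such pairs the mean distal minus proximal tail was 1.90 nt, above 0 in 8 of 10 subsamples (exact sign-flip permutation p = 0.119). The 13 pairs at 500 to 5000 nt exceeded them by 3.50 nt, in 7 of 10 subsamples, which did not pass (exact sign-flip permutation p = 0.0547). The proximal tail slopes of the closer pairs were −5.90 nt per level (PABPC1) and −12.2 (PABP1212), and their distal slopes −5.10 and −12.8, beside −8.00 and −12.4, and −5.65 and −13.5, in the wider pairs. Median proximal shares were higher in the closer pairs, between 61.5% and 66.1% over the 10 subsamples in 97 pairs, a difference that was not tested. With more pairs in the PABP1212 library alone the gap was smaller. There the medians lay between 53.85% and 56.25% in 327 closer pairs and between 42.6% and 46.6% in the 187 wider ones.

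Among pairs with at least 20 reads in all 10 subsamples, those next to the distance limits had widely differing shares on either side. Just inside 500 nt, the pair on chromosome 15 at 500 nt had a mean proximal share of 19.3% (7.5 to 39.3 over subsamples), and the next wider one, on chromosome 13, had 15.2% (6.90 to 22.7). Just outside, pairs at 491 nt on chromosome 6 and 465 nt on chromosome 19 had 30.9% (21.8 to 44.4) and 68.1% (62.8 to 73.3). Just inside 5000 nt, pairs at 4926 nt on chromosome 1 and 4907 nt on chromosome 8 had 13.5% (6.25 to 25) and 77.6% (70.7 to 82.6). Just outside, pairs at 5068 nt on chromosome 11 and 5081 nt on chromosome 19 had 14.0% (8.25 to 20) and 4.06% (1.99 to 7.26).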

How the data were processed

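In the authors' deposited tables each read has 1 row, giving subsample, poly(A) site and tail length in nt, and a barcode table names the sort level of each subsample, per the file headers. The tail length is another unit than a count or a level, a deposited length in nt. Tools named without role or version in the submitters' processing notes are minimap2 and Bowtie2, beside hg38. The basecaller and the tail caller: not given in the sources used here. Of 9004 sites, 240 (2.67%) lay within 25 nt of a GENCODE v29 transcript end, so gene names and sequences were not used here. Reads of unlisted subsample names (2.86% and 5.63%) were left out.

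Pairs, lists and tests were chosen with earlier results of these data known. Shares needed 20 reads per pair and tails also 10 per site in every subsample used. Trends were tested by exact permutation of the levels within library, the tail difference by exact sign flips over subsamples. Per-pair and per-site fits used limma 3.58.1 in R 4.3.3 on log2 read ratios (0.5 added, inverse counting variance as weights) or mean log2(nt + 1), with Benjamini-Hochberg adjustment over all features fitted and a threshold of 0.05. Pairs were named where they had the most reads, passed a per-pair trend test, had the highest or lowest mean tail difference, or lay next to a distance limit. Scripts were tested on simulated data. Other steps used SciPy 1.17.1, NumPy 2.4.6, Matplotlib 3.10.9 and pandas 2.3.3 in Python 3.11.15. Alternatives covered read minimums, distance, weights, centring, short tails, shared sites and each subsample left out.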

Additional observations from a re-analysis of the deposited data

How the results depend on the processing

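Depth limited most comparisons: 13 pairs carried the tail results in both libraries, and 2 of them remained at 50 reads per pair and 25 per site. The groups could not be paired by replicate because each group has 1 library, so they share fewer than 2 replicate numbers. A level shared by both libraries is a condition and not a replicate. Leaving out an uninduced subsample does not enter a slope over sorted levels. The pairs passing in the 8 sorted subsamples, those passing in each subsample on its own, the omission of the chromosome 8 pair, and the comparisons with closer pairs and other sites were chosen after seeing the data.

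The mean distal minus proximal tail of 5.40 nt was 4.33 to 6.33 nt with 1 subsample left out (exact permutation p at most 0.0273) and 4.83 nt over pairs that pass in each subsample. It was 14.3 nt at 2000 to 5000 nt (4 pairs) and did not pass at 500 to under 2000 nt (2.75 nt) or at 50 and 25 reads (0.40 nt). The slope of this difference, 4.10 nt per level, was 1.62 to 4.85 with 1 subsample left out. It did not pass without the PABPC1 lowest (2.38), second-lowest (3.20) or highest level (1.62), or without the PABP1212 second-highest level (3.31). It did not pass without tails under 10 nt (3.00), with site means (2.20), at 50 and 25 reads (6.45), at 20 and 5 reads (0.80), at 2000 to 5000 nt (1.62), in pairs that pass within each library (2.94) or in the 8 sorted subsamples (0.85). Its PABP1212 part changed sign in 5 of these settings: −0.80 without tails under 10 nt, −0.60 at 20 and 5 reads, −2.88 at 2000 to 5000 nt, −0.57 within each library and −0.55 in the 8 sorted subsamples. Its library difference ranged from −6.27 to 0.25 with 1 subsample left out.

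The proximal tail slope ranged from −12.8 to −7.00 nt per level with 1 subsample left out, and its library difference from −9.50 to 2.00. The distal slope ranged from −12.8 to −4.50, its PABPC1 part from −6.25 to 4.50 and its library difference from −18.0 to 1.15. The distal slope did not pass at 50 and 25 reads (−7.34) or at 2000 to 5000 nt (−7.55). The proximal share slope of −0.05 points per level ranged from −0.48 to 0.66 with 1 subsample left out. It was positive at 50 reads per pair, here with no minimum per site (0.47), and without shared sites (0.49). It was also positive in the 8 sorted subsamples (0.24) and where the lesser site held at least 10% of reads (0.054). Its PABPC1 part ranged from −1.59 to 0.69 and was 0.36 without shared sites, and its PABP1212 part was −0.78 at 2000 to 5000 nt. The library difference in share slope ranged from −0.066 to 2.22, the latter without the PABPC1 highest level, where it passed (exact permutation p = 0.0139). It passed at 20 and 5 reads (1.53) and at 500 to under 2000 nt (1.51), and was −0.44 at 2000 to 5000 nt.

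Counts of tandem pairs called for the share moved as follows. For the PABPC1 replacement change the count was 0 to 1 with 1 subsample left out and 2 without weights, and for the PABPC1 trend 0 to 2 with 1 left out. The PABP1212 trend gave 1 to 5 with 1 left out and 6 with subsample medians subtracted, and its replacement change gave 1 without weights, at a minimum of 50 reads and with medians subtracted. In the PABP1212 library alone the trend gave 0 to 3 with 1 left out and 0 without weights. The replacement change there gave 0 to 3 with 1 left out, and 1 with 1 read added or with medians subtracted. For the tail difference, 1 pair passed for the PABPC1 trend without weights and 1 for the PABP1212 trend with only pairs of 500 to 5000 nt in the fit. Of kept sites followed singly, the PABP1212 trend called 0 to 73 with 1 left out, 33 without tails under 10 nt and 19 without weights. All 914 sites gave 11 to 665 with 1 left out, 429 without tails under 10 nt and 231 without weights, against 139. The PABP1212 replacement change called 0 to 3 and the trend difference 0 to 7 with 1 left out, and without weights the PABPC1 trend and the PABPC1 replacement change called 1 each. Apart from the PABP1212 trend at single sites, counts over all fitted pairs or sites in these settings are not given here. Whether those moves are particular to tandem pairs or kept sites was not tested, nor was the cause of any of these moves.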

Other observations

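With pairs counted wherever they had enough reads in a subsample on its own, many more entered. In the PABP1212 highest level the distal tail was the longer at 308 pairs and the shorter at 157, with a median difference of 9.75 nt, and in its second-highest level at 295 and 193, with 6 nt. In the PABP1212 uninduced cells these were 73 and 44, with 5.50 nt. The PABPC1 library gave 72 longer and 48 shorter in its second-highest level, with 6.25 nt, and 18 and 7 in uninduced cells, with 8 nt. Its other levels were not alike: 15 were longer and 15 shorter in the lowest (0.25 nt), 17 and 31 in the second-lowest (−3.00 nt) and 19 and 20 in the highest (−1.5 nt).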
